A study of Mus musculus with 6 samples.

Results

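The 38 genes described here encode plasma proteins of blood clotting and complement that the liver secretes. They were taken by symbol from a fixed list, 38 of the 49315 genes in the count table, and all 38 were found and tested. The list covers clotting proteases and a cofactor, the contact pathway, the fibrin cross-linking carrier F13b, anticoagulants, clotting inhibitors, fibrinolysis proteins, the lectin, classical, alternative and terminal complement pathways, and fluid-phase complement regulators. Bulk mRNA sequencing was done on hepatocytes sorted from mouse livers, with 3 libraries of GFP-positive miR-206 cells and 3 libraries of GFP-negative control cells. All animals were male C57BL/6J mice that received, at 8 weeks of age, a hydrodynamic tail vein injection of 20 µg of a transposon plasmid and 0.8 µg of a Sleeping Beauty transposase plasmid, and hepatocytes were isolated 4 weeks later. In the miR-206 group the plasmid carried miR-206 and GFP behind the promoter of Ttr, which is active in hepatocytes. The control group is labelled wild-type and empty vector, whereas the design text takes the GFP-negative cells from the same 3 injected mice. Plasmid uptake, GFP and miR-206 were therefore not separated by the design, and the delivered miRNA itself could not be read from these mRNA libraries.

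Hepatocytes make most circulating clotting factors and complement proteins, and transcription factors of the HNF and C/EBP families are known to drive many of these genes. Clotting runs through a chain of proteases that ends in thrombin, which cuts fibrinogen to fibrin, and is held in check by antithrombin and by the protein C system, while plasmin dissolves the clot. Complement starts from antibody, from lectins or from slow spontaneous turnover, meets at C3, and ends in a pore built from the terminal components. miR-206 is a muscle-enriched microRNA that is scarce in normal hepatocytes. A microRNA pairs with messages mainly through its seed, bases 2 to 8 of the mature strand.

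The delivered sequence and its possible sites among the 38 messages are shown because pairing with the message is how a microRNA could act on a member directly. The mature mouse strand (RefSeq, GRCm38.p6, chr1:20679055-20679076, plus strand) has its seed in capitals below, and the seed match in the 3′ UTRs of Pros1 (chr16:62928244-62928250, plus strand) and Masp1 (chr16:23450703-23450709, minus strand) is in capitals within its flanks, read from the GENCODE M21 transcripts.
mmu-miR-206-3p: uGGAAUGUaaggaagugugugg
Pros1 3′ UTR: attatgctcACATTCCtatcaccag
Masp1 3′ UTR: ggcttccagACATTCCtggtggaac
Pros1 encodes protein S, the cofactor of activated protein C, and Masp1 a protease of the lectin pathway. These were the only 2 of the 38 members with a match, which is 5.26%, against 11.7% of the 16865 tested genes with an annotated 3′ UTR. The 38 members also had shorter 3′ UTRs, with a median of 497.5 bases against 1272 bases in all those genes. A match is a description of letters and was not tested as a site, and the other 36 members have no such 7 letters in the UTR examined.

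The libraries held 4157947, 4939030 and 5724329 counts in the miR-206 group, against 8966590, 15244017 and 14071679 in the controls. Mitochondrially encoded genes took 11.2%, 63.8% and 48.7% of the counts in the miR-206 libraries, against 36.0%, 9.16% and 10.4% in the controls, so levels are given below as CPM with nuclear counts alone in the total (nuclear CPM). Counts on 1702 olfactory and vomeronasal receptor genes, which hepatocytes should not express, gave a background, taken per exonic kilobase, worth 18.3%, 25.7% and 22.7% of nuclear counts in the miR-206 libraries, against 6.58%, 1.28% and 1.24% in the controls. The 23 other hepatocyte genes used as markers summed to between 66372 and 127360 nuclear CPM in the miR-206 libraries and between 117262 and 164404 in the controls, with none at 0, so both groups carried hepatocyte RNA. In edgeR 20 of the 23 fell with the counts as deposited. The 11 Kupffer cell markers were lower in the miR-206 libraries, at a sum of 98.6 to 176 nuclear CPM against 479 to 1105 in the controls, and all 11 fell as deposited. They stood at 2.10 to 5.38 times the background in the miR-206 libraries, against 34.1 to 972 times in the controls. The 10 sinusoidal endothelial markers summed to 248 to 343 in the miR-206 libraries, against 344 to 550 in the controls. All 10 fell as deposited, where 29.6% of all genes fell. They stood at 0.723 to 4.92 times the background in the miR-206 libraries, against 6.79 to 185 times in the controls. In the background-corrected fit given below, 3 of the 9 endothelial markers tested rose and 4 fell. Of the 11 Kupffer markers 0 rose and 8 fell in that fit, where 18.5% of all genes rose and 20.3% fell. All of these tested markers were kept there through the controls alone. No marker of either list was at 0. Control 1 stood apart among the controls: across the 38 members its log2 nuclear CPM correlated at r = 0.974 to 0.980 with the miR-206 libraries, against 0.953 and 0.960 with controls 2 and 3, which correlated with each other at 0.999 (a description over 38 genes that share their libraries).

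Before any comparison, the members spanned a wide range of levels. Per kilobase of exon, Kng1, the kininogen precursor of bradykinin, was the most abundant message at 2445 in the miR-206 libraries and 1453 in the controls (mean nuclear CPM per kilobase). In the miR-206 libraries the complement hub C3 followed, at 1053 in the miR-206 libraries and 976 in the controls, then plasminogen (Plg) at 959 in the miR-206 libraries and 529.9 in the controls and prothrombin (F2) at 915 in the miR-206 libraries and 628 in the controls. At the other end, the lowest levels in the miR-206 libraries, Masp1 stood at 9.62 in the miR-206 libraries and 5.93 in the controls, Pros1 at 21.8 in the miR-206 libraries and 21.9 in the controls and Klkb1, plasma prekallikrein, at 22.7 in the miR-206 libraries and 29.9 in the controls. The 5 members with the most counts, Kng1, Serpinc1, C3, F2 and Plg, held 60.6%, 58.8% and 59.9% of all member counts in the miR-206 libraries, against 55.3%, 53.0% and 53.6% in the controls. Nearly all members stood well above the background: 35 of 38 were at 10 or more times it in every library. The exceptions were Masp1, Pros1 and C2, and the lowest value was 4.21 times, for Masp1 in a miR-206 library, while the lowest in a control was 17.2 times.

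**Figure D1:**
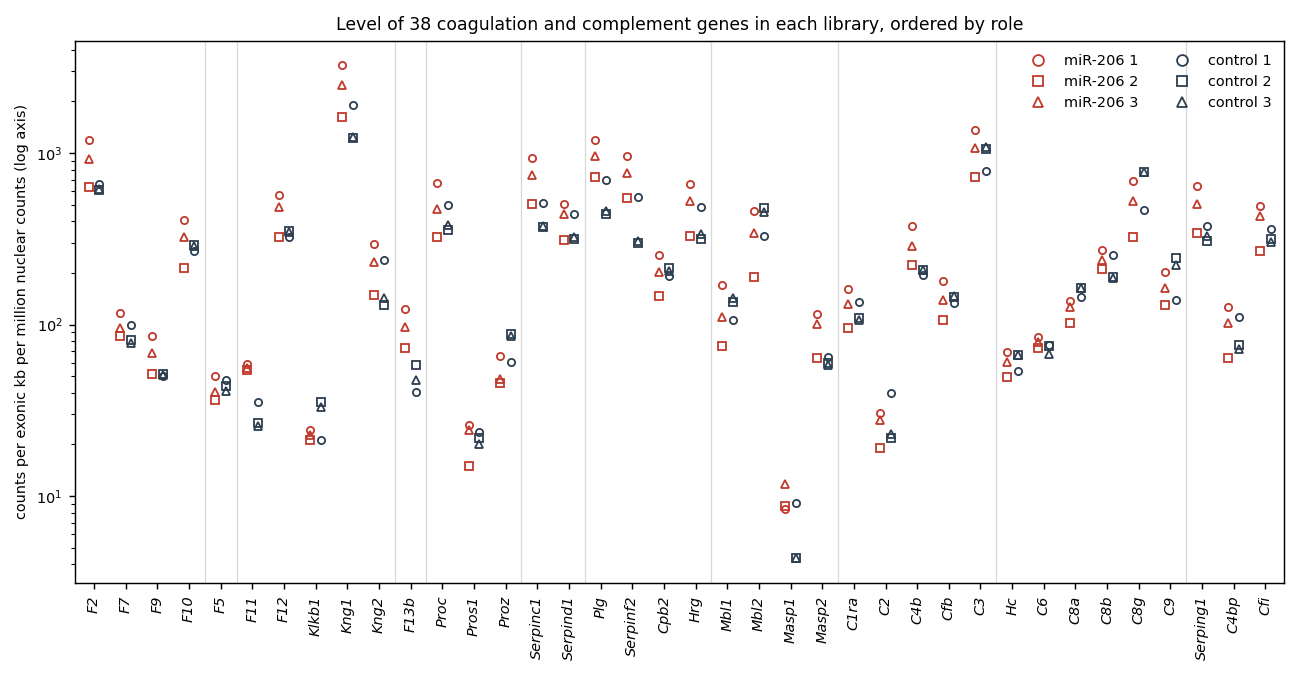
Level of each of the 38 members in each library, ordered by role, in nuclear CPM per exonic kilobase on a log axis, with a point for each miR-206 library (red) and each control (dark blue). Kng1 is the highest and Masp1 the lowest in both groups, and 32 of the 38 members overlap between groups.

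Which way these genes differ between the groups depends on what they are measured against. In raw shares of nuclear RNA the groups overlapped for 32 of the 38 members. All 3 miR-206 libraries were above all 3 controls for F9, F11, F13b, Plg and C4b, which is 5 of 38 where 60.5% of the 24350 tested nuclear genes stood that way. All 3 were below for C8a alone, where 13.3% of the genes stood that way. Without control 1 these counts are 15 and 5. The shares over all genes without control 1 were not computed, so these 2 counts are not read as a result about the members. In bulk samples, fewer cells of a type and less RNA per cell cannot be told apart.

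With the counts as deposited and edgeR's TMM scaling, 0 members rose and 18 fell at a Benjamini-Hochberg adjusted p of 0.05, while 25.8% of all 24382 tested genes rose and 29.6% fell. At an unadjusted p under 0.05 the count of members that rose was also 0, and it was 0 with DESeq2, by which 32 fell (24.5% of all genes rose and 31.3% fell by that test). The member median was a log2 fold change of -1.33 (miR-206 over control), against 0.45 over all genes. With the background subtracted and only nuclear protein-coding genes at 10 or more times it kept, 30 members rose and 0 fell, while 18.5% of the 6458 genes rose and 20.3% fell. Of those 6458 genes, 5639 averaged under 10 times the background in the miR-206 libraries and were kept through the controls alone, which held for 1 of the 38 members, Masp1. Of those 5639 genes, 964 rose and 1105 fell, so the shares over the 6458 genes come mostly from genes kept otherwise than the members were. The member median was then 1.30, against -0.23 over all genes. At an unadjusted p under 0.05 the count of members that fell in that fit was also 0. Of the 18 that fell as deposited, 10 rose after correction and 8 were not called, and the 20 not called as deposited all rose. Scaled on library size alone, with mitochondrially encoded genes kept in the total, 0 members were called in either direction, also at an unadjusted p under 0.05. Of all genes, 47.7% rose and 15.5% fell with that scale. The member median was then -0.14, against 1.47 over all genes, and 15 of the 38 members were above 0, at 0.08 to 0.70. Leaving out a library moved the deposited count of fallen members to between 2 and 34, with 2 without miR-206 2, 5 without miR-206 3, control 2 or control 3, 27 without miR-206 1 and 34 without control 1. Of all tested genes, 22.3% fell without miR-206 2, 24.2% without miR-206 3 and 24.4% without control 2 or control 3. That share was 25.4% without miR-206 1 and 34.7% without control 1. In the corrected fit the count of risen members was 4 without control 2 or control 3, 8 without miR-206 3, 15 without miR-206 1, 25 without control 1 and 35 without miR-206 2. Of all genes in those fits, 8.87% rose without control 2, 8.73% without control 3 and 12.5% without miR-206 3. That share was 14.9% without miR-206 1, 21.2% without control 1 and 17.2% without miR-206 2. Only F9, F11, F13b and Masp2 rose in all 6 of those corrected fits.

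**Figure D2:**
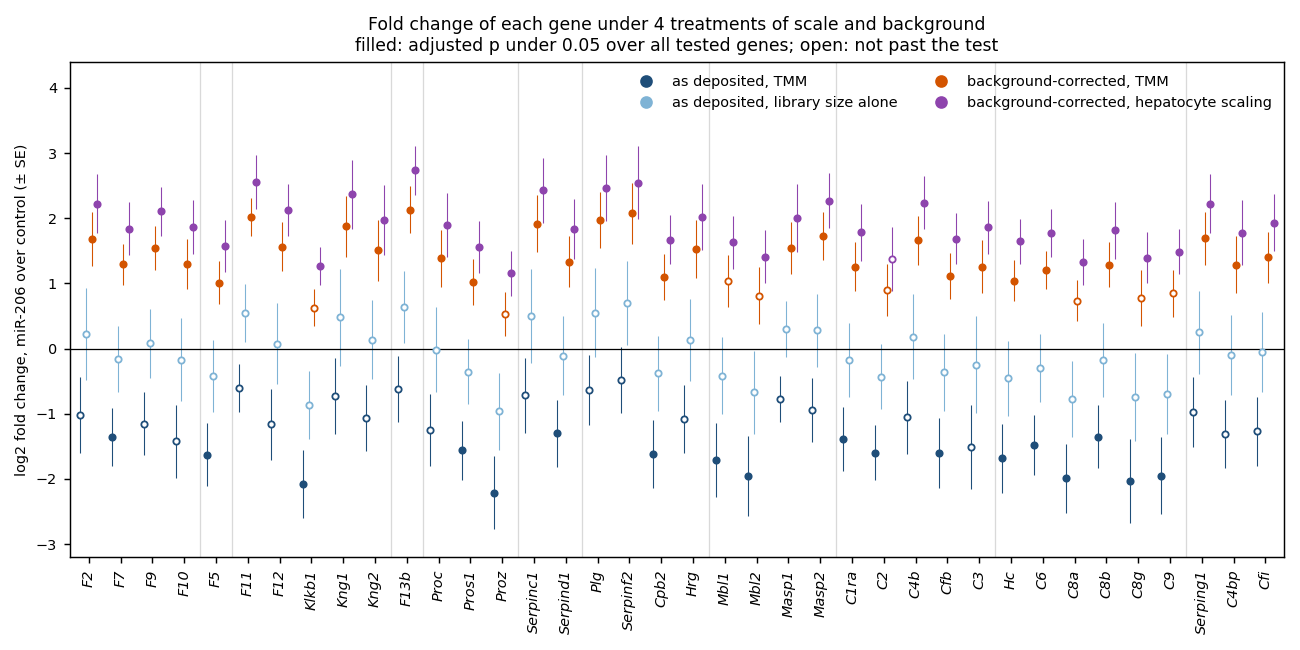
Log2 fold change (miR-206 over control) of each member with its standard error, in 4 fits: as deposited with TMM, as deposited with library size alone, background-corrected with TMM and background-corrected with scaling on hepatocyte genes; filled points passed the test and open points did not. All 38 deposited TMM values lie below 0, and all 38 corrected TMM values lie above 0.

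The vitamin K-dependent clotting proteases shared a narrow range of values. Prothrombin, the precursor of thrombin, was the most abundant of them. F2 (ENSMUSG00000027249, chromosome 2, 91625320 to 91636414) had 5495, 2899 and 4214 in the miR-206 libraries, against 3032, 2804 and 2822 in the controls (nuclear CPM). The miR-206 1 and 3 libraries were above every control and miR-206 2 lay among them. Its log2 fold change was -1.01 (SE 0.58, adjusted p = 0.154) as deposited and 1.68 (SE 0.41, adjusted p = 0.0151) corrected (edgeR). F7, the protease that starts clotting with tissue factor, had 216, 159 and 177 in the miR-206 libraries, against 184, 151 and 145 in the controls (nuclear CPM), so the groups overlapped. F7 fell as deposited, with a log2 fold change of -1.35 (SE 0.44, adjusted p = 0.0247), and rose in the corrected fit, at 1.29 (SE 0.32, adjusted p = 0.0154). F9, the protease missing in haemophilia B, had 233, 142 and 187 in the miR-206 libraries, against 137, 141 and 138 in the controls (nuclear CPM), with every miR-206 library above every control. Its corrected log2 fold change was 1.54 (SE 0.34, adjusted p = 0.0102), against -1.15 (SE 0.48, adjusted p = 0.0616) as deposited. F10, which as factor Xa cuts prothrombin, was not called as deposited at -1.42 and rose at 1.30 corrected. F5, the cofactor of factor Xa, fell as deposited at -1.63 (SE 0.48, adjusted p = 0.0169) and rose corrected at 1.01 (SE 0.33, adjusted p = 0.0397). Its levels overlapped, with 373, 272 and 298 in the miR-206 libraries, against 353, 324 and 303 in the controls (nuclear CPM).

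The contact pathway held members near both ends of the range. F11, which activates factor IX, had 133, 121 and 126 in the miR-206 libraries, against 79.1, 60.0 and 57.1 in the controls (nuclear CPM), and the miR-206 libraries were all higher. It was not called as deposited, at -0.61 (SE 0.37, adjusted p = 0.177), and rose in the corrected fit at 2.02 (SE 0.29, adjusted p = 0.00311). Its neighbour on chromosome 8, Klkb1 (plasma prekallikrein), stood at the other end. Klkb1 had 127, 111 and 119 in the miR-206 libraries, against 112, 185 and 174 in the controls (nuclear CPM), and the groups overlapped. It fell as deposited at -2.08 (SE 0.52, adjusted p = 0.00771) and was not called corrected at 0.63 (SE 0.29, adjusted p = 0.113), and Klkb1 and Proz were the only members that fell in the deposited fit with each library left out in turn. Kng1 had 10529.9, 5239 and 8072 in the miR-206 libraries, against 6153, 3971 and 4038 in the controls (nuclear CPM), and its corrected value was 1.87 (SE 0.47, adjusted p = 0.016). Control 1 was above miR-206 2, so the groups overlapped. Kng2, the closely similar second kininogen gene, rose corrected at 1.50, and reads shared between the pair could be split between them. F12, which starts the contact pathway, rose corrected at 1.56 and was not called as deposited at -1.16. F13b, the carrier subunit of the fibrin cross-linking factor XIII, had 311, 185 and 245 in the miR-206 libraries, against 103, 146 and 120.0 in the controls (nuclear CPM). Its miR-206 libraries were all above the controls. Its corrected log2 fold change of 2.13 (SE 0.36, adjusted p = 0.00456) was the highest of the 38, and it was not called as deposited at -0.62 (SE 0.51, adjusted p = 0.306).

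The vitamin K-dependent anticoagulants included the lowest value of the 38. Proz encodes protein Z, the cofactor with which the inhibitor Serpina10 blocks factor Xa. Proz (ENSMUSG00000031445, chromosome 8, 13060914 to 13076026) had 363, 252 and 266 in the miR-206 libraries, against 337, 488 and 478 in the controls (nuclear CPM). Controls 2 and 3 were above every miR-206 library, and control 1 lay among them. It fell as deposited at -2.21 (SE 0.56, adjusted p = 0.00841) and was not called corrected at 0.53 (SE 0.33, adjusted p = 0.232). Pros1, which carries a seed match in its UTR, had 106, 61.0 and 99.7 in the miR-206 libraries, against 96.8, 89.0 and 82.8 in the controls (nuclear CPM), with the groups overlapping. It fell as deposited at -1.56 (SE 0.45, adjusted p = 0.0149) and rose corrected at 1.02 (SE 0.35, adjusted p = 0.048). Proc, the zymogen of protein C, was not called as deposited at -1.25 and rose corrected at 1.38.

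Of the inhibitors of clotting proteases, Serpind1 passed the test as deposited and Serpinc1 did not, and the difference between them was not tested. Serpinc1, antithrombin, had 7943, 4324 and 6329.6 in the miR-206 libraries, against 4357, 3149 and 3209.6 in the controls (nuclear CPM). It was not called as deposited at -0.72 (SE 0.57, adjusted p = 0.29) and rose corrected at 1.92 (SE 0.44, adjusted p = 0.0116). Serpind1, heparin cofactor II, fell as deposited at -1.30 (SE 0.51, adjusted p = 0.0498), just inside the threshold, and rose corrected at 1.33 (SE 0.39, adjusted p = 0.0292). Serpind1 lies within Pi4ka on the opposite strand, and the strand of counting is not stated, so reads of the pair cannot be told apart. The same holds where annotations touch for Serpinc1 and Zbtb37, Masp2 and Tardbp, C8g and Fbxw5, Plg and Slc22a3, Masp1 and Rtp4, Hc and an antisense transcript, and C2 and Cfb, which share a readthrough transcript. Among the fibrinolysis proteins, Plg had 4413, 2683 and 3579 in the miR-206 libraries, against 2574, 1629 and 1696 in the controls (nuclear CPM), with every miR-206 library above every control. Its corrected log2 fold change was 1.97 (SE 0.43, adjusted p = 0.0103), and as deposited it was not called at -0.64 (SE 0.54, adjusted p = 0.313). Serpinf2, the main plasmin inhibitor, had 2242, 1274 and 1774 in the miR-206 libraries, against 1294, 692 and 713 in the controls (nuclear CPM), and the groups overlapped through control 1. Its deposited value of -0.48 (SE 0.51, adjusted p = 0.424) was the nearest to 0 of all members, and it rose corrected at 2.08 (SE 0.47, adjusted p = 0.0114). Hrg, a histidine-rich plasminogen-binding protein, rose corrected at 1.53. Cpb2, the carboxypeptidase that protects fibrin from plasmin, fell as deposited at -1.62 (SE 0.53, adjusted p = 0.0249) and rose corrected at 1.10 (SE 0.35, adjusted p = 0.039).

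In the lectin pathway the recognition lectins Mbl1 and Mbl2 fell as deposited, and the difference from their proteases was not tested. Mbl2, a mannose-binding lectin, had 501, 205 and 371 in the miR-206 libraries, against 356, 521 and 493 in the controls (nuclear CPM), and the groups overlapped. Mbl2 fell as deposited at -1.96 (SE 0.62, adjusted p = 0.0216) and was not called corrected at 0.81 (SE 0.43, adjusted p = 0.162). Mbl1, its paralog, fell as deposited at -1.71 and was not called corrected at 1.04 (adjusted p = 0.0724). Masp2, the protease that cleaves C4 and C2 for the lectins, was not called as deposited at -0.94 and rose corrected at 1.73 (SE 0.37, adjusted p = 0.00996). Masp1, the member nearest to the background, rose corrected at 1.54 and was not called as deposited at -0.78. Masp1 had 307, 153 and 338 counts in the miR-206 libraries, against 515, 590 and 537 in the controls.

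Of the classical and alternative pathway members, C1ra, C2 and Cfb fell as deposited, and C3 and C4b were not called. C3 (ENSMUSG00000024164, chromosome 17, 57203970 to 57228136), where the pathways meet, had 6981, 3728 and 5531 in the miR-206 libraries, against 4025, 5436 and 5591 in the controls (nuclear CPM). Control 1 was the lowest of the controls, and the groups overlapped. Its log2 fold change was -1.51 (SE 0.64, adjusted p = 0.066) as deposited and 1.26 (SE 0.41, adjusted p = 0.0406) corrected. C4b, the substrate of the classical and lectin proteases, had 2138, 1267 and 1636 in the miR-206 libraries, against 1107, 1185 and 1188 in the controls (nuclear CPM), with all miR-206 libraries higher. It rose corrected at 1.66 (SE 0.38, adjusted p = 0.0114), and reads shared with its near copy C4a could be split between them. C1ra, a protease of the first component, fell as deposited at -1.39 and rose corrected at 1.26. Cfb, the protease of the alternative convertase, fell as deposited at -1.60 and rose corrected at 1.11. C2, its classical counterpart and chromosome 17 neighbour, fell as deposited at -1.60 and was not called corrected at 0.90 (SE 0.40, adjusted p = 0.106).

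All 6 terminal pathway members fell as deposited, where 29.6% of all genes fell, with log2 fold changes of -2.03 to -1.35. With each library left out in turn, C8a fell in 5 of the 6 fits and each of the other 5 members in 2. In the corrected fit Hc, C6 and C8b rose and C8a, C8g and C9 were not called. C8a (ENSMUSG00000035031, chromosome 4, 104815679 to 104876398), the pore-inserting alpha chain of C8, had 499, 371 and 459 in the miR-206 libraries, against 528, 592 and 597 in the controls (nuclear CPM), and it was the only member with every miR-206 library below every control. Its values were -1.99 (SE 0.53, adjusted p = 0.0101) as deposited and 0.74 (SE 0.31, adjusted p = 0.0935) corrected. C8g, the gamma chain, had 1025, 480.4 and 786 in the miR-206 libraries, against 690.2, 1150.0 and 1156 in the controls (nuclear CPM), with controls 2 and 3 highest. It fell as deposited at -2.03 (SE 0.64, adjusted p = 0.0222) and was not called corrected at 0.77 (SE 0.42, adjusted p = 0.175). C9, which lines the pore, had 517, 330.3 and 418 in the miR-206 libraries, against 355, 623 and 567 in the controls (nuclear CPM), with controls 2 and 3 highest, and was at -1.95 (SE 0.59, adjusted p = 0.0185) as deposited. C8b, the beta chain and the neighbour of C8a on chromosome 4, had 693, 537 and 605 in the miR-206 libraries, against 648, 480.5 and 477 in the controls (nuclear CPM). It fell as deposited at -1.35 and rose corrected at 1.29. Hc, the component cleaved to start the pore, was at -1.68 as deposited and 1.04 corrected. C6, which joins next in the assembly, was at -1.48 as deposited and 1.20 corrected. The 3 fluid-phase regulators were not called as deposited and rose corrected. In that order of fits, the values were -0.98 and 1.69 for Serping1, the C1 inhibitor, -1.31 and 1.29 for C4bp, which binds C4b, and -1.27 and 1.40 for Cfi, the protease that destroys C3b and C4b.

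Taken as a sum, the 38 messages made up 5.84%, 3.21% and 4.63% of nuclear counts in the miR-206 libraries, against 3.64%, 3.21% and 3.24% in the controls. The groups overlapped, since miR-206 2 lay below controls 1 and 3 and differed from control 2 by less than their 95% Wilson intervals. After background subtraction the sum was 7.12%, 4.28% and 5.95% in the miR-206 libraries, against 3.89%, 3.25% and 3.28% in the controls, and the groups no longer overlapped. The 23 other hepatocyte genes took 12.7%, 6.64% and 9.97% of nuclear counts in the miR-206 libraries, against 11.7%, 16.4% and 16.4% in the controls. The ratio of the 2 sums does not depend on how libraries are scaled. It was 0.458, 0.484 and 0.464 in the miR-206 libraries, against 0.311, 0.195 and 0.197 in the controls, and every miR-206 library was higher. Without Alb, the albumin gene and the most abundant of the 23, it was 0.665, 0.680 and 0.667 in the miR-206 libraries, against 0.463, 0.287 and 0.291 in the controls. A scale on those 23 genes took the mean of their log2 CPM, with equal weight for each gene, not their sum. Among them, Cebpa and Foxa2 stood at 0.86 and 0.20 times the background in the miR-206 libraries. Their part in the result was not tested. Scaled this way, 37 of the 38 members rose and 0 fell, while 70% of all genes rose and 0.919% fell. The member median was 1.56, and the median of all genes was 3.11. The 23 genes were mixed. Of their 12 secreted plasma proteins, 4 rose and 0 fell in the corrected fit, with a median log2 fold change of 0.75. The 4 were Gc, the vitamin D carrier, at 1.57, Apoh at 1.50, Ahsg at 1.39 and Ambp at 1.16, beside the member median of 1.30. Of the 11 other genes, enzymes, the fatty acid binder Fabp1 and transcription factors, 0 rose and 9 fell, with a median of -1.78. These included the urea cycle enzyme Cps1 at -2.47 and the tyrosine enzyme Tat at -1.73. Hnf4a, whose value is the median of the 11, Cebpa and Foxa2 were also among the 9 that fell. These 3 were kept through the controls alone, so their calls and that median are not independent of the filter. The split was made after the values were seen. Over the 12 secreted proteins the ratio of sums was 0.473, 0.528 and 0.489 in the miR-206 libraries, against 0.348, 0.232 and 0.233 in the controls. Over the 11 other genes it was 14.7, 5.70 and 9.14 in the miR-206 libraries, against 2.91, 1.22 and 1.30 in the controls. Both ratios were higher in every miR-206 library.

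**Figure D3:**
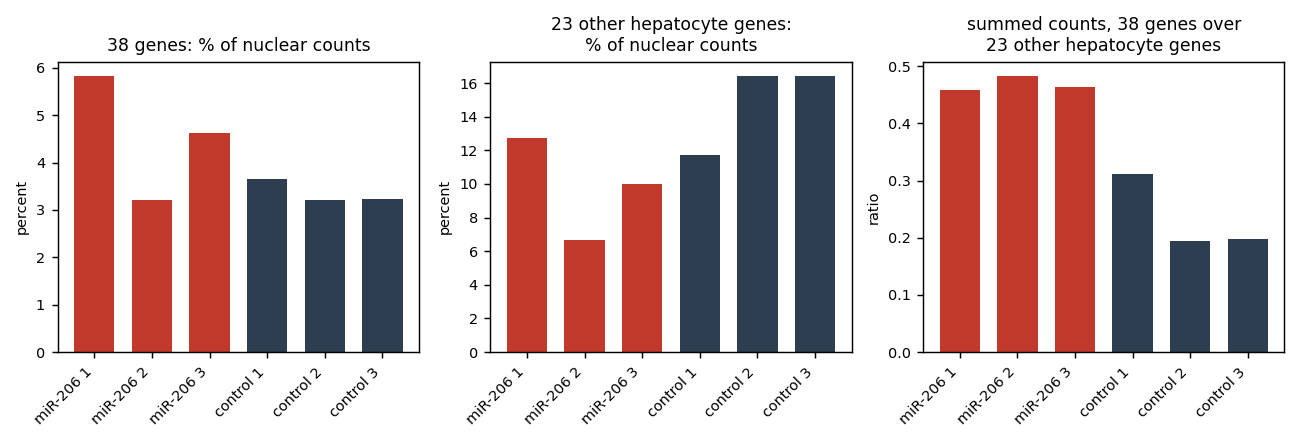
Bars for each library give the summed counts of the 38 members and of the 23 other hepatocyte genes as percentages of nuclear counts, and the ratio of the 2 sums. The ratio lies between 0.458 and 0.484 in the miR-206 libraries and between 0.195 and 0.311 in the controls, with control 1 nearest to the miR-206 libraries.

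Composition within the 38 genes does not depend on library scaling either. As a share of member counts, 8 members had all their miR-206 values above all their control values, 15 had all of them below and 15 overlapped. Over all tested nuclear genes set against the same member sum, 48.5% were higher and 14.4% lower in every miR-206 library. Without control 1 the member counts are 11 and 20, and the shares over all genes without it were not computed. The 8 were F2, F11, F13b, Serpinc1, Plg, Serpinf2, Masp2 and Serping1. The 15 were F10, F5, Pros1, Proz, Serpind1, Cpb2, Mbl1, Mbl2, C1ra, C2, Cfb, C8a, C8g, C4bp and Cfi. Proz took 0.622, 0.785 and 0.575% in the miR-206 libraries, against 0.925, 1.52 and 1.47% in the controls. Plg, at the other side, took 7.56, 8.36 and 7.74% in the miR-206 libraries, against 7.06, 5.08 and 5.23% in the controls. F13b took 0.532, 0.577 and 0.529% in the miR-206 libraries, against 0.281, 0.456 and 0.370% in the controls. By role, the terminal pathway held 5.94%, 7.13% and 6.34% of member counts in the miR-206 libraries, against 7.75%, 10.998% and 10.6% in the controls. The vitamin K-dependent anticoagulants held 3.66%, 3.48% and 3.32% in the miR-206 libraries, against 4.55%, 4.54% and 4.65% in the controls. Both roles were lower in every miR-206 library. The clotting protease inhibitors held 15.5%, 15.6% and 15.8% in the miR-206 libraries, against 14.6%, 11.97% and 12.1% in the controls. Fibrinolysis proteins held 14.3%, 15.1% and 14.5% in the miR-206 libraries, against 14.1%, 10.3% and 10.5% in the controls. Both were higher in every miR-206 library, with control 1 close to them.

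Scaled on the member sum in edgeR, 0 members were above it and 0 below it at adjusted p of 0.05, where 45.9% of all genes were above and 11.3% below, with values from -0.99 (SE 0.50, adjusted p = 0.0795) for Proz to 0.59 (SE 0.53, adjusted p = 0.325) for F11. At an unadjusted p under 0.05 there were 0 above and 1 below. With the background also subtracted, 0 were above and 2 below, where 1.25% of all genes were above and 49.8% below: Proz at -1.03 (SE 0.35, adjusted p = 0.0346) and C8g at -0.87 (SE 0.33, adjusted p = 0.0478). Without the background subtraction, Proz was below at -1.13 (SE 0.40, adjusted p = 0.0488) when miR-206 2 was left out. When control 1 was left out, Proz was below at -1.18 (SE 0.53, adjusted p = 0.0392) and C8g at -1.12 (SE 0.46, adjusted p = 0.0252).

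**Figure D4:**
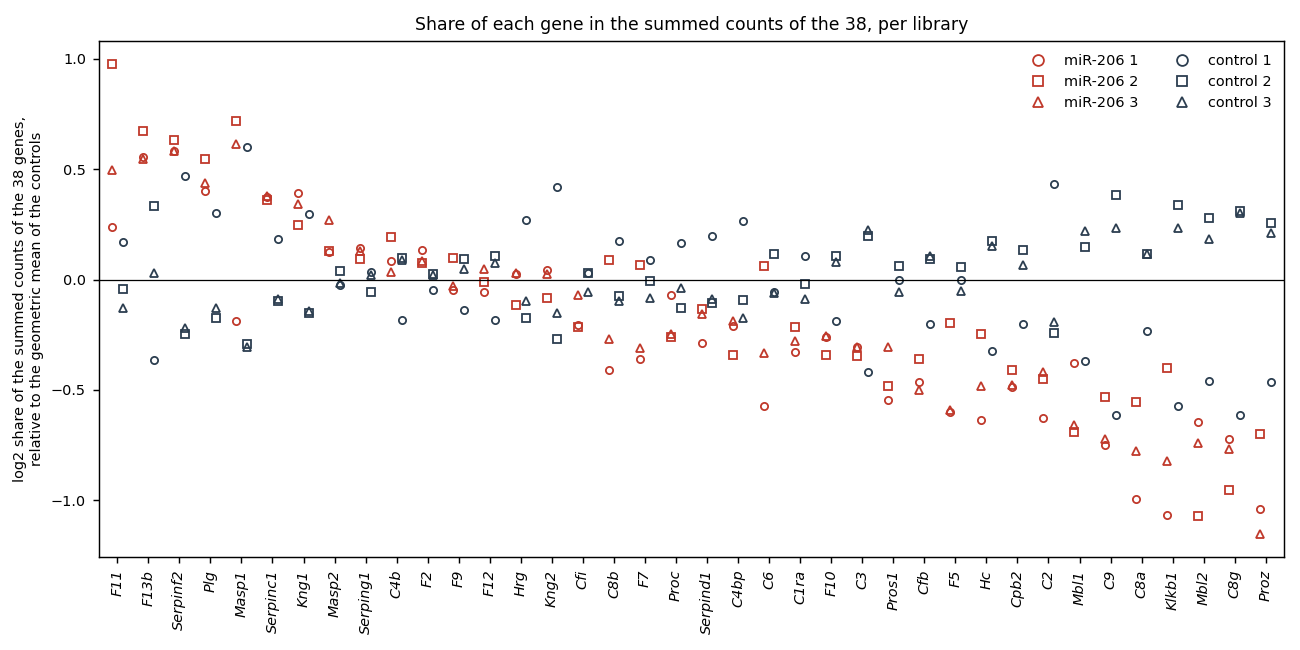
Share of each member in the summed counts of the 38, as a log2 value relative to the geometric mean of the controls, with a point for each miR-206 library (red) and each control (dark blue) and genes ordered by the ratio of group means. By the ratio of group means, F11 is the highest at 0.60 and Proz the lowest at -0.98 on the log2 scale.

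The promoters of the genes at the ends of that order are shown because their letters can be set beside the shares. They are the 2 lowest and 2 highest members by share ratio among those with a single promoter in the RefSeq table (GRCm38.p6, 250 bases before to 50 after the start). C8g, lower than Mbl2 by that ratio, has 2 promoters there. Capitals mark a motif found on either strand.
Proz (chr8:13060658-13060957, plus strand): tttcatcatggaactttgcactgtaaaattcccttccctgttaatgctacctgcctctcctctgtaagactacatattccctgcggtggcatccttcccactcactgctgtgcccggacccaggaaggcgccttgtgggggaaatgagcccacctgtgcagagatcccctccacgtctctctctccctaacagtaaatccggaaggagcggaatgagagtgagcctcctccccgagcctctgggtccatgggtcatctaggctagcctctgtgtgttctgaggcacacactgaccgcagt
Mbl2 (chr19:30232678-30232977, plus strand): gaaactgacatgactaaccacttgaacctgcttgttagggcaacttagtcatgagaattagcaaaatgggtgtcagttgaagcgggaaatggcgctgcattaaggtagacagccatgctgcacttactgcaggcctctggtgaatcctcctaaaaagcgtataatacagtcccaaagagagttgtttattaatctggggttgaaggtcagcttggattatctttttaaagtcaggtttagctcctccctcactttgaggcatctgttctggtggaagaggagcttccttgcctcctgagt
F13b (chr1:139501457-139501756, plus strand): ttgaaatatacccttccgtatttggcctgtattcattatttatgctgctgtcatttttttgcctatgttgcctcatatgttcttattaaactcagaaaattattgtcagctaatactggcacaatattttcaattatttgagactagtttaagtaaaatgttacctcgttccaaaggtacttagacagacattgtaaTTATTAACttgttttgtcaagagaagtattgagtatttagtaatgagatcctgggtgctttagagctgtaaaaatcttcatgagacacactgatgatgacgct
F11 (chr8:45261982-45262281, minus strand): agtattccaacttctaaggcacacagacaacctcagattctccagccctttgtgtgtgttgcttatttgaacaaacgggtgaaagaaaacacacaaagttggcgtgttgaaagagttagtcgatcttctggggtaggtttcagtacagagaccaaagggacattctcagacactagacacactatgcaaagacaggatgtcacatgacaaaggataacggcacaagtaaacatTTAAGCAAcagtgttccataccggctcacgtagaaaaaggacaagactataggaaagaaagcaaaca
The motifs searched were GTTAATNA for HNF1, CAAAGTCCA for HNF4, TTGCNNAA for C/EBP and TTCNNNGAA for STAT factors, on both strands and with any overlap allowed. The F13b capitals are an HNF1-type match and the F11 capitals a C/EBP-type match. Other members toward the low end also held motifs: Klkb1 (-0.79) and C9 (-0.73) the C/EBP-type, and C8a (-0.77) the HNF1- and STAT-types. Toward the high end, Serpinc1 (0.36) held a C/EBP-type motif and Serpinf2 (0.56) none. A link between motifs and shares was not tested. Of the 29 members with a promoter in the table, 4 held the HNF1-type motif (13.8%, against 2.54% of all 32851 promoters). The C/EBP-type motif was in 10 (34.5%, against 10.8%), the STAT-type motif in 5 (17.2%, against 8.3%) and the HNF4-type motif in 0 (against 0.475%). These matches are descriptions of letters, not of binding.

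Other genes of the same systems are made by different cells or act at cell surfaces. Of 60 such genes listed, 58 were tested, and 5 rose, 31 fell and 22 were not called as deposited. Of all genes, 25.8% rose and 29.6% fell as deposited, and 18.5% rose and 20.3% fell in the corrected fit. These shares apply to the counts by role below too. In the corrected fit 39 of the listed genes were tested, and 15 rose, 8 fell and 16 were not called. Of these 39, 21 were kept through the controls alone, among them all 8 that fell and 3 that rose, so those calls are not independent of the filter. The deposited count of risen genes was 1 without miR-206 1, 2 without miR-206 2, miR-206 3 or control 2, 3 without control 3 and 8 without control 1. In those fits 7.06% to 41.8% of all genes rose. Of the 17 tested genes made by other cells, 2 rose and 7 fell as deposited, led by the C1q chains, the recognition molecule of the classical pathway that macrophages make. C1qa had 9, 10 and 14 counts in the miR-206 libraries, against 161, 1014 and 868 in the controls. All 3 miR-206 libraries were lower, and its log2 fold change was -5.55 (SE 0.67, adjusted p = 0.000316) as deposited. C1qb, at -5.76, C1qc, at -5.49, and properdin (Cfp), at -5.09, also fell as deposited. These 4 genes stood at 2.10 to 5.38 times the background in the miR-206 libraries, against 240.2 to 972 times in the controls. The C1q chains stand in the Kupffer list too, whose other members fell with them as given above, and the part of fewer Kupffer cells in this was not tested. Of the 16 receptors and membrane regulators, 2 rose and 7 fell as deposited, and of the 9 in the corrected fit 2 rose and 1, Vsig4, fell. Vsig4, a complement receptor of Kupffer cells, was at -4.86 (SE 0.55, adjusted p = 0.000281) as deposited. Thbd, the thrombin-binding endothelial protein, fell as deposited at -2.06 and was not called corrected at -0.93 (adjusted p = 0.344). The membrane regulators Cd59a and Cd55 fell as deposited at -2.43 and -1.63 and were not called corrected, at 0.16 and 0.18.

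All 5 genes of vitamin K recycling, carboxylation and factor export fell as deposited, where 29.6% of all genes fell. In the corrected fit 2 rose, 1 fell and 2 were not called, where 18.5% of all genes rose and 20.3% fell. The export receptor subunit Mcfd2 was at -3.70 (SE 0.51, adjusted p = 0.000439) as deposited. It was at -1.16 (SE 0.33, adjusted p = 0.0248) corrected, kept there through the controls alone. Its partner Lman1 was at -1.35 as deposited and rose corrected at 1.24 (SE 0.33, adjusted p = 0.0205). The carboxylase Ggcx, named here for its rise in the corrected fit, was at -1.05 as deposited and 1.49 (SE 0.33, adjusted p = 0.0108) corrected. The vitamin K reductase Vkorc1 was at -3.18 (SE 0.62, adjusted p = 0.00226) as deposited and not called corrected at -0.37. Its paralog Vkorc1l1 was at -1.55 as deposited and not called corrected at 0.73. Of the 20 other plasma proteins, 1 rose and 12 fell as deposited, where 25.8% of all genes rose and 29.6% fell. In the corrected fit 10 of 17 rose and 1 fell, where 18.5% of all genes rose and 20.3% fell. The collectin Colec11 was at -3.83 as deposited and -1.58 corrected, kept there through the controls alone. C4a, the near copy of C4b, fell as deposited at -2.08 and was not tested corrected. The collectin Colec10 fell as deposited at -1.62 and the carboxypeptidase N subunit Cpn2 at -2.91, and neither was called corrected, at 0.33 and -0.25.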

How the data were processed

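Sorted mouse hepatocytes were sequenced as bulk mRNA, with 3 miR-206 and 3 control libraries. The deposited values are whole-number counts per gene that the authors made from their reads; per the submitters' processing notes the genome builds were mm10 and GRCm38. Which aligner, counting tool, annotation and strand were used is not stated there. Gene positions, exon lengths and 3′ UTRs were taken from GENCODE M21, and 174 rows without a symbol were used in no member list.

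Counts were fitted in edgeR 4.0.16 (R 4.3.3) with its filter on low counts (minimum count 10), TMM scaling and the robust quasi-likelihood F test on group alone. P-values were adjusted by Benjamini-Hochberg over all tested genes, with a threshold of 0.05. For the background-corrected fit, counts per exonic kilobase on 1702 receptor genes were subtracted in each library, and nuclear protein-coding genes whose counts averaged 10 or more times that background over the 6 libraries were kept. DESeq2 1.42.0, other scalings, filters, a replicate block and each library left out were alternatives. The corrected fit's own alternatives, the scaling on the member sum and the split of the hepatocyte list were added after seeing the data.

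The 38 members and the lists were chosen with earlier results of these data known. All members are named, and of the other pathway genes at most 4 called genes per role, by smallest p. Library totals ran from 4157947 to 15244017 counts, so the miR-206 libraries, with the fewer counts, are the less precise. The Wilson intervals are at the 95% level and cover counting error only. The labels do not say that replicate numbers pair the groups, and p-values measure the spread between these 6 libraries.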

Additional observations from a re-analysis of the deposited data

How the results depend on the processing

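Against 0 members risen and 18 fallen as deposited, the counts of risen and fallen members were 0 and 20 with DESeq2-style (RLE) factors, 0 and 32 with the DESeq2 test, 0 and 19 without the filter on low counts and 0 and 20 without mitochondrial genes. The shares of all tested genes risen and fallen were 23% and 30.8%, 24.5% and 31.3%, 12.4% and 17.9%, and 24.1% and 29.2% in the same order of settings. They were 0 and 0 with library size alone, 37 and 0 with scaling on hepatocyte genes, 30 and 0 with background correction, 15 and 0 with correction and library size alone, and 37 and 0 with correction and hepatocyte scaling. The shares of all genes were 47.7% and 15.5%, 70% and 0.919%, 18.5% and 20.3%, 7.01% and 26.6%, and 25.6% and 7.08% in that order. Leaving out 1 library gave 2 to 34 fallen and 0 risen, where 22.3% to 34.7% of all genes fell and 7.06% to 41.8% rose. In the corrected fit 13 rose at a minimum of 5 times the background, 33 of 37 tested at 20 times and 34 with the minimum on summed counts. Of all genes, 20.2%, 17.6% and 19.3% rose in that order. Leaving out 1 library gave 4 to 35 risen and 0 fallen in the corrected fit, where 8.73% to 21.2% of all genes rose and 6.62% to 23.4% fell. On the member sum, 0 were above, and 0 to 2 were below with 1 library left out, 2 with background correction. With 1 library left out, 22.1% to 58.5% of all genes were above and 5.33% to 12.3% below. With background correction 1.25% were above and 49.8% below. Of the other pathway genes, 1 to 8 rose and 21 to 40 fell with 1 library left out, where 7.06% to 41.8% of all genes rose and 22.3% to 34.7% fell. Deviations from the group means correlated between same-numbered libraries at 0.0136, 0.0257 and -0.0062 over 24382 genes. This cannot decide whether a number marks a shared mouse, since the libraries differed widely in mitochondrial share and background. With the replicate number as a block, 7 members fell as deposited, 30 rose corrected and 4 were below the member sum (Proz, Mbl2, C8a and C8g). Of all genes with that block, 27.5% fell as deposited, 16.7% rose corrected and 10.1% were below the member sum.

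With library size alone on the deposited counts, 15 members were above 0 in place of below, at 0.08 to 0.70, and none was called in either fit. The members listed next were above 0 in place of below and were called in at least 1 of the 2 fits, and the cause was not tested. With scaling on hepatocyte genes, 38 members were so: F2 1.93, F7 1.56, F9 1.84, F10 1.57, F5 1.32, F11 2.29, F12 1.84, Klkb1 1.08, Kng1 2.07, Kng2 1.69, F13b 2.45, Proc 1.60, Pros1 1.36, Proz 0.90, Serpinc1 2.13, Serpind1 1.55, Plg 2.17, Serpinf2 2.25, Cpb2 1.38, Hrg 1.73, Mbl1 1.34, Mbl2 1.11, Masp1 1.94, Masp2 1.99, C1ra 1.50, C2 1.16, C4b 1.95, Cfb 1.40, C3 1.56, Hc 1.38, C6 1.50, C8a 1.05, C8b 1.53, C8g 1.10, C9 1.20, Serping1 1.93, C4bp 1.50 and Cfi 1.64. With background correction, 38 members were so: F2 1.68, F7 1.29, F9 1.54, F10 1.30, F5 1.01, F11 2.02, F12 1.56, Klkb1 0.63, Kng1 1.87, Kng2 1.50, F13b 2.13, Proc 1.38, Pros1 1.02, Proz 0.53, Serpinc1 1.92, Serpind1 1.33, Plg 1.97, Serpinf2 2.08, Cpb2 1.10, Hrg 1.53, Mbl1 1.04, Mbl2 0.81, Masp1 1.54, Masp2 1.73, C1ra 1.26, C2 0.90, C4b 1.66, Cfb 1.11, C3 1.26, Hc 1.04, C6 1.20, C8a 0.74, C8b 1.29, C8g 0.77, C9 0.85, Serping1 1.69, C4bp 1.29 and Cfi 1.40. With background correction and library size alone, 32 members were so: F2 1.05, F7 0.70, F9 0.92, F5 0.42, F11 1.46, F12 0.95, Klkb1 0.061, Kng1 1.24, F13b 1.52, Pros1 0.40, Serpinc1 1.29, Serpind1 0.72, Plg 1.36, Serpinf2 1.46, Cpb2 0.48, Hrg 0.89, Mbl1 0.38, Mbl2 0.16, Masp2 1.10, C1ra 0.64, C2 0.28, C4b 1.05, Cfb 0.50, C3 0.63, Hc 0.45, C6 0.63, C8a 0.15, C8b 0.71, C8g 0.13, C9 0.24, Serping1 1.06 and Cfi 0.78. With background correction and hepatocyte scaling, 38 members were so: F2 2.22, F7 1.84, F9 2.11, F10 1.86, F5 1.57, F11 2.56, F12 2.13, Klkb1 1.27, Kng1 2.36, Kng2 1.97, F13b 2.73, Proc 1.89, Pros1 1.56, Proz 1.16, Serpinc1 2.43, Serpind1 1.84, Plg 2.46, Serpinf2 2.55, Cpb2 1.67, Hrg 2.02, Mbl1 1.63, Mbl2 1.41, Masp1 2.00, Masp2 2.27, C1ra 1.78, C2 1.37, C4b 2.24, Cfb 1.69, C3 1.86, Hc 1.64, C6 1.77, C8a 1.32, C8b 1.82, C8g 1.39, C9 1.48, Serping1 2.22, C4bp 1.78 and Cfi 1.93. With background correction and library size alone, F10 at 0.67, Kng2 at 0.87, Proc at 0.74, Masp1 at 0.98 and C4bp at 0.65 were above 0 too but called in neither fit, and Proz was at -0.066. Masp1, Pros1 and C2 were below 10 times the background in at least 1 library.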
